A study of Homo sapiens with 4 samples.

Results

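Complement components and regulators comprise 34 of the 25343 gene symbols measured in both hepatocellular carcinoma lines, Huh7 and PLC/PRF/5, with and without knockdown of SCD. Members were chosen by symbol, with earlier results of these data known. They are genes of the classical, lectin, alternative and terminal pathways and their regulators, and all 34 were found in the files. There were 4 groups of 1 RNA-seq library each. The groups were Huh7 carrying the lentiviral hairpin shSCD1#13 (SCD1 knockdown), Huh7 with a non-target vector (NTC), PLC/PRF/5 with the same hairpin and PLC/PRF/5 with the non-target vector. Every culture, the controls included, carried a lentiviral vector and had been selected with puromycin for stable transduction, in serum-containing high-glucose medium. Only 1 hairpin was used, so an effect of SCD loss and an effect of that hairpin on other transcripts cannot be told apart. The study asked which genes differ in expression on depletion of SCD, an enzyme that puts a double bond into saturated fatty acids.

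Complement is a cascade of plasma proteases and of the pores they build. The classical pathway starts with C1, whose protease C1r activates C1s, which cleaves C4 and C2. The lectin pathway reaches the same step through MASP proteases bound to sugar-recognising lectins, and the alternative pathway runs through factor B and factor D. All routes cleave C3 and then C5, and C5b to C9 assemble into the membrane attack complex, while soluble and membrane-bound regulators protect host cells. Hepatocytes make most of the circulating complement proteins, and several of the genes are induced in the acute-phase response.

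Levels are in TPM, which is scaled by transcript length and to 1 fixed total per library, so the sequencing depth is unknown. SCD itself was at 137 and 1755 TPM in the Huh7 knockdown and control, and at 178 and 1111 TPM in the PLC/PRF/5 knockdown and control. All 7 hepatocyte markers examined were at 159.6 TPM or more in both Huh7 libraries. In PLC/PRF/5 they diverged. APOB, SERPINA1 and HNF4A were at 1485, 972 and 135 TPM in the knockdown and 1780, 1303 and 122 TPM in the control. Albumin, APOA1 and AFP were at 41.5, 15.5 and 6.96 TPM in the knockdown and 69.3, 28.6 and 17.2 TPM in the control, and the transthyretin gene TTR was under 1 TPM in both libraries. Of the myeloid markers, CSF1R was at 0.02 TPM or less and PTPRC under 1 TPM in all 4 libraries. The lysozyme gene LYZ was at 1008 TPM or more and CD68 at 8.76 TPM or more in each. CD14 was at 2.53 TPM or more in Huh7 and under 1 TPM in PLC/PRF/5. Of the cholangiocyte markers, KRT19 and SOX9 were at 564 and 132 TPM in the Huh7 knockdown and 274 and 171 TPM in its control. In PLC/PRF/5 they were at 8.02 and 39.3 TPM or less, and KRT7 was under 1 TPM in every library. The endothelial list summed to 3.4 TPM or less in every library. In a bulk culture, fewer cells that express a gene and less RNA of it per cell cannot be told apart.

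The 34 genes together summed to 4342 TPM in the Huh7 knockdown and 2901 TPM in its control, and to 1900.0 TPM in the PLC/PRF/5 knockdown and 1827 TPM in its control. A few abundant genes carried these sums. In both Huh7 libraries clusterin (CLU) and vitronectin (VTN) were the most abundant and together made up 48.7% of the summed level in the knockdown and 51.7% in the control. In both PLC/PRF/5 libraries vitronectin, C3 and CD46 led, and together made up 79.6% in the knockdown and 80.4% in the control. At the other end, 8 of the 34 members stayed under 1 TPM in every library, beside 10865 of all 25343 genes. The 8 members were C4B, C9, the properdin gene CFP, the ficolin gene FCN3 and the factor H-related genes CFHR2, CFHR3, CFHR4 and CFHR5. FCN3 was listed at 0 in all 4 libraries. The lines also differed in how many members they used, since 9 were under 1 TPM in both Huh7 libraries and 19 in both PLC/PRF/5 libraries. In Huh7, 25 of the 34 members reached 1 TPM in at least 1 library, beside 13485 of all 25343 genes. In PLC/PRF/5, 15 members did, beside 13057 of all genes.

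**Figure D1:**
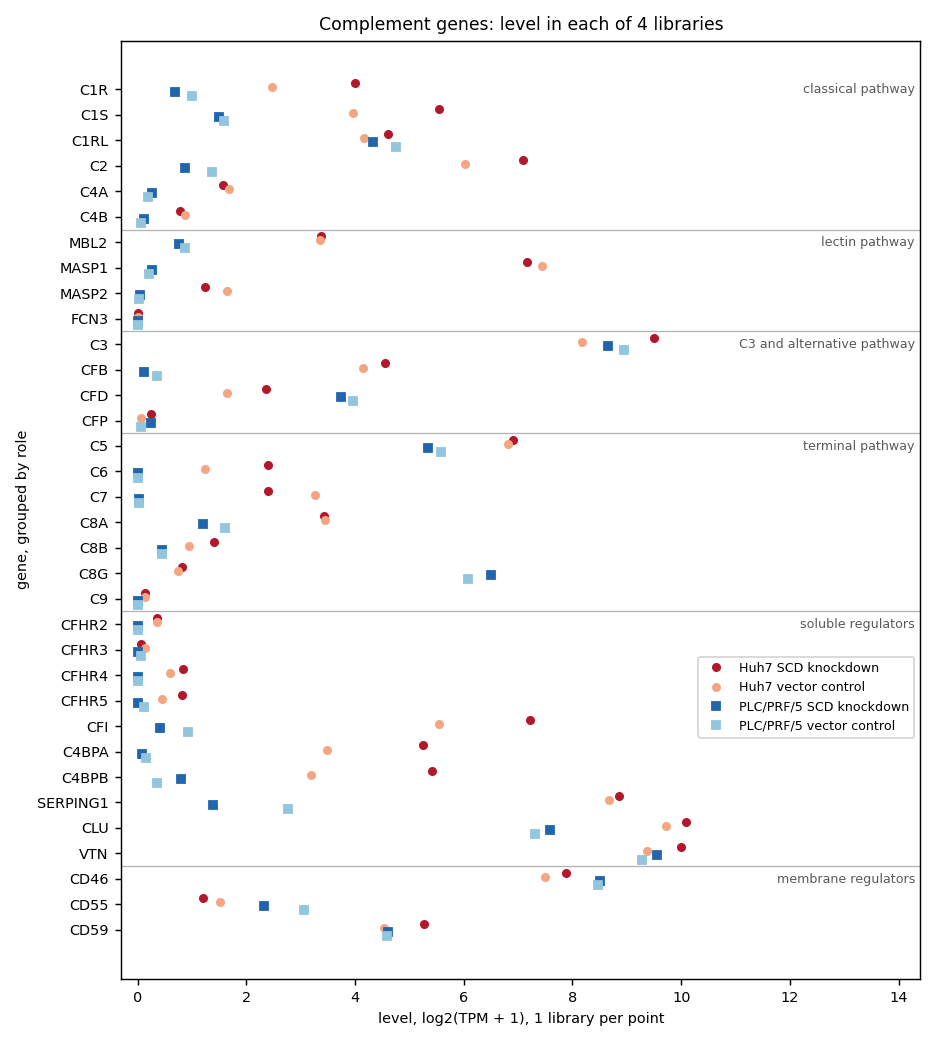
Level of each of the 34 complement genes in log2(TPM + 1) in each of the 4 libraries, grouped by role. Circles are Huh7 and squares PLC/PRF/5, with the SCD knockdown in the darker and the vector control in the lighter colour. CFI, C2, MASP1 and SERPING1 lie far to the right in Huh7 and toward the left in PLC/PRF/5, whereas C8G lies the other way round.

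The first comparison set the knockdown against the control library within each line. Fold changes were taken as log2 of (TPM + 1), which makes differences of low genes look smaller, among genes with at least 1 TPM in at least 1 library of the pair. The 2-fold counts use the TPM + 1 scale, and folds printed beside the TPM of a single gene are plain ratios of TPM. With 1 library per arm there is no replicate check and no test, and a size of at least 2-fold is used to describe. In Huh7, 8 of the 25 members considered were at least 2-fold higher in the knockdown library, where 3.1% of all 13485 genes considered were. None was at least 2-fold lower, where 1.54% of all genes were. By sign alone 19 members were higher and 6 lower, beside 60.2% and 39.7% of all genes, and the members' median log2 fold change was 0.45 beside 0.08 for all genes. In PLC/PRF/5, 15 members were considered, none was at least 2-fold higher (1.72% of all 13057 genes) and 1 was at least 2-fold lower (1.12% of all genes). There 5 members were higher and 10 lower, beside 63.4% and 36.5% of all genes, and the median was -0.24 beside 0.10. The direction of 3 of these values was fixed by the minimum of 1 TPM, since C8B reached it in the Huh7 knockdown alone and C1R and C2 in the PLC/PRF/5 control alone.

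**Figure D2:**
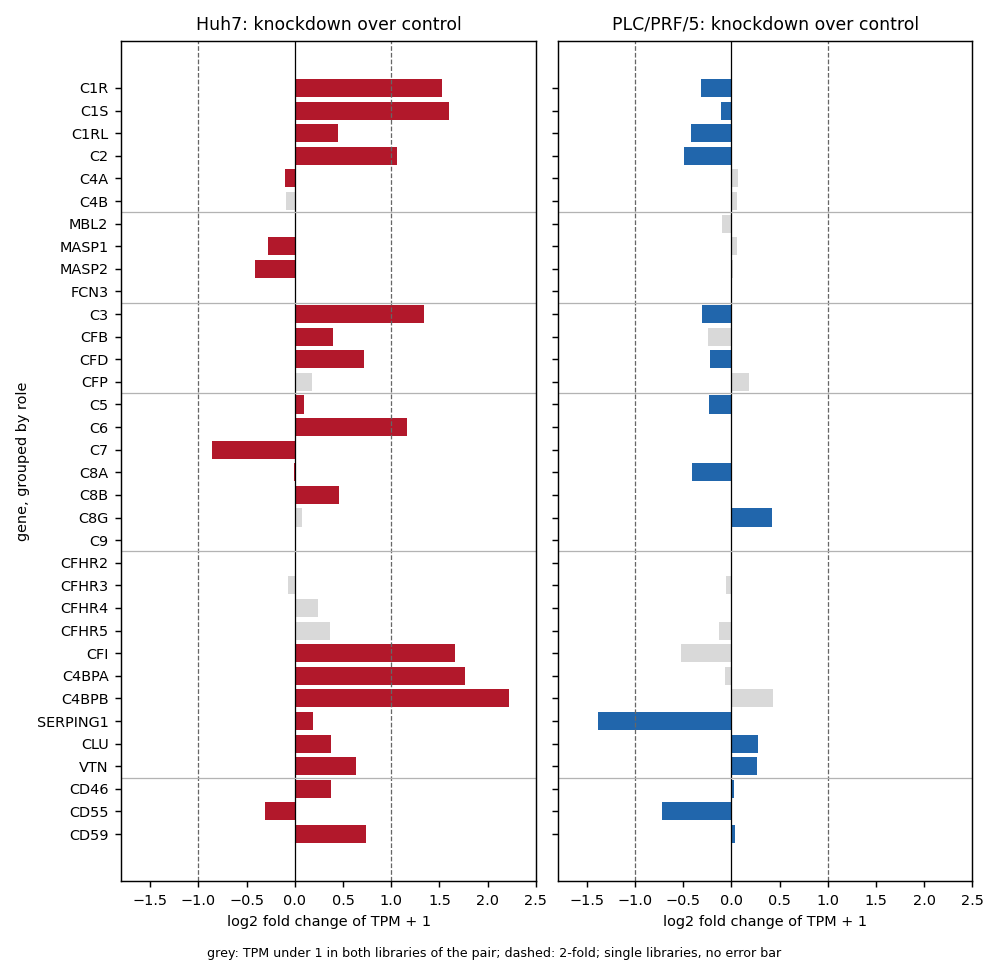
Log2 fold change of TPM + 1, SCD knockdown over vector control, of each complement gene in Huh7 and in PLC/PRF/5; each bar compares 2 single libraries. In Huh7, C1R, C1S, C2, C3, C6, CFI, C4BPA and C4BPB pass the dashed 2-fold line on the right, and in PLC/PRF/5 SERPING1 passes it on the left.

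In the classical pathway the protease genes C1R, C1S and C2 were at least 2-fold higher in the Huh7 knockdown library, and C4A was not. C1R, the protease that activates C1s, was at 14.9 TPM in the Huh7 knockdown and 4.54 TPM in its control, 3.29-fold higher, and at 0.61 and 1.0 TPM in the PLC/PRF/5 knockdown and control. C1S, which cleaves C4 and C2, was at 45.9 TPM in the Huh7 knockdown against 14.5 TPM in its control, 3.16-fold higher, and at 1.81 and 2.02 TPM in the PLC/PRF/5 knockdown and control. Both genes were thus more than 3-fold higher in TPM (log2 fold changes of 1.52 and 1.59 on the TPM + 1 scale) in the knockdown of the line that expressed them. They were low in the other line. C2, which supplies the protease of the classical C3 convertase, was at 135 TPM in the Huh7 knockdown against 64.2 TPM in its control, 2.11-fold higher, and at 0.84 and 1.59 TPM in the PLC/PRF/5 knockdown and control. C1RL, a relative of C1R, was at 23.4 and 16.9 TPM in the Huh7 knockdown and control and at 19.1 and 25.9 TPM in the PLC/PRF/5 knockdown and control. It was the classical-pathway member with the most similar level in both lines. C4A, one of the C4 copies, was at 1.99 and 2.21 TPM in the Huh7 knockdown and control and at 0.2 and 0.14 TPM in the PLC/PRF/5 knockdown and control. C4B was at 0.09 to 0.72 TPM in the knockdown libraries and at 0.05 to 0.83 TPM in the control libraries. The C4 genes share 95.4% of the 31-base words of the C4A transcript, so their split is uncertain, and C1R shares 16.3% of its words with C1RL.

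Of the lectin-pathway genes, 3 reached 1 TPM in Huh7 and none in PLC/PRF/5. MASP1, a lectin-pathway protease gene, was at 142 TPM in the Huh7 knockdown against 173 TPM in its control, and at 0.2 and 0.15 TPM in the PLC/PRF/5 knockdown and control. It was among the most abundant complement genes of the Huh7 control and close to absent in PLC/PRF/5. MBL2, the mannose-binding lectin gene, was at 9.33 and 9.25 TPM in the Huh7 knockdown and control and at 0.7 and 0.82 TPM in the PLC/PRF/5 knockdown and control. MASP2, the protease gene that cleaves C4 and C2 in this pathway, was at 1.35 and 2.13 TPM in the Huh7 knockdown and control and at 0.03 and 0.02 TPM in the PLC/PRF/5 knockdown and control. Of the 3 lectin-pathway genes considered in Huh7, 0 reached a 2-fold difference, a number too small to set against the 3.1% of all genes higher and 1.54% lower by that size.

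C3, on which all 3 pathways converge, was one of the few members that both lines expressed strongly. It was at 724 TPM in the Huh7 knockdown against 286 TPM in its control, 2.53-fold higher, and at 401 TPM in the PLC/PRF/5 knockdown against 494 TPM in its control, 1.23-fold lower. The Huh7 control thus lay below both PLC/PRF/5 libraries and the Huh7 knockdown above both. CFB, factor B of the alternative pathway, was at 22.4 and 16.8 TPM in the Huh7 knockdown and control and at 0.08 and 0.28 TPM in the PLC/PRF/5 knockdown and control. CFD, the protease that cleaves factor B, was at 4.13 and 2.11 TPM in the Huh7 knockdown and control, 1.96-fold higher, and at 12.3 and 14.6 TPM in the PLC/PRF/5 knockdown and control. It was one of the members with a higher level in PLC/PRF/5 in both arms. CFP, the properdin gene, was at 0.18 TPM in both knockdown libraries and 0.04 TPM in both control libraries, levels at which no fold is given.

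The terminal components split gene by gene. C5, whose cleavage starts the membrane attack complex, was at 119 and 111 TPM in the Huh7 knockdown and control and at 39.4 and 46.6 TPM in the PLC/PRF/5 knockdown and control. C6, the next component, was at 4.28 TPM in the Huh7 knockdown against 1.36 TPM in its control, 3.15-fold higher, and listed at 0 in both PLC/PRF/5 libraries. C7 went the other way from C6, at 4.25 TPM in the Huh7 knockdown against 8.55 TPM in its control, 2.01-fold lower in TPM but with a log2 fold change of -0.86 on the TPM + 1 scale, and at 0.02 TPM in both PLC/PRF/5 libraries. The chains of C8 came from different lines. C8A was at 9.82 and 9.85 TPM in the Huh7 knockdown and control and at 1.3 and 2.05 TPM in the PLC/PRF/5 knockdown and control. C8B was at 1.66 and 0.93 TPM in the Huh7 knockdown and control and at 0.37 TPM in both PLC/PRF/5 libraries. C8G, the lipocalin-type gamma chain, was at 0.76 and 0.67 TPM in the Huh7 knockdown and control but at 89.6 and 66.5 TPM in the PLC/PRF/5 knockdown and control. Among the terminal components, it alone had its higher level in PLC/PRF/5. C9, the pore-forming subunit, was at 0.1 TPM in both Huh7 libraries and listed at 0 in both PLC/PRF/5 libraries.

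The soluble regulators held the highest fold changes, in genes that act on C4b and C3b. C4BPB, the beta chain of C4b-binding protein, was at 41.5 TPM in the Huh7 knockdown against 8.1 TPM in its control, 5.13-fold higher, and at 0.73 and 0.28 TPM in the PLC/PRF/5 knockdown and control. C4BPA, its alpha chain, was at 37.1 and 10.2 TPM in the Huh7 knockdown and control, 3.63-fold higher, and at 0.06 and 0.11 TPM in the PLC/PRF/5 knockdown and control. The chains were close to each other in level within each Huh7 library. CFI, factor I, the protease that inactivates C3b and C4b, was at 148 and 45.9 TPM in the Huh7 knockdown and control, 3.21-fold higher, and at 0.33 and 0.91 TPM in the PLC/PRF/5 knockdown and control. SERPING1, the inhibitor of C1r and C1s, differed in the other line. It was at 462 and 405 TPM in the Huh7 knockdown and control and at 1.6 and 5.78 TPM in the PLC/PRF/5 knockdown and control, 3.61-fold lower, from a level far below that in Huh7. CLU, the chaperone clusterin that blocks the terminal complex, was at 1090.1 and 841 TPM in the Huh7 knockdown and control and at 191 and 158 TPM in the PLC/PRF/5 knockdown and control. VTN, vitronectin, which acts at the same step, was at 1024 and 659 TPM in the Huh7 knockdown and control and at 749 and 621 TPM in the PLC/PRF/5 knockdown and control. CLU and VTN were thus higher in the knockdown of both lines, by 1.3-fold and 1.55-fold in Huh7 and 1.21-fold each in PLC/PRF/5, where 63.4% of all genes were higher. With the libraries rescaled by their median ratios, their log2 fold changes in PLC/PRF/5 went from 0.276 and 0.271 to 0.131 and 0.126. In Huh7 they went from 0.373 and 0.636 to 0.274 and 0.537. The factor H-related genes CFHR2, CFHR3, CFHR4 and CFHR5 were at 0.05 to 0.78 TPM in the Huh7 knockdown and 0.1 to 0.51 TPM in the Huh7 control, and all were listed at 0 in the PLC/PRF/5 knockdown.

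All 3 membrane regulators were above 1 TPM in every library. CD46, the cofactor for factor I on the cell surface, was at 234 and 180.4 TPM in the Huh7 knockdown and control and at 361 and 355 TPM in the PLC/PRF/5 knockdown and control. CD59, which stops C9 from polymerising, was at 37.4 and 22.1 TPM in the Huh7 knockdown and control, 1.69-fold higher, and at 23.5 and 23.0 TPM in the PLC/PRF/5 knockdown and control. CD55, which accelerates the decay of C3 convertases, was lower in the knockdown of both lines, at 1.31 and 1.86 TPM in the Huh7 knockdown and control and at 4.04 and 7.3 TPM in the PLC/PRF/5 knockdown and control. Rescaling the libraries by their median ratios turned the small positive values of CD46 and CD59 in PLC/PRF/5 to -0.12 and -0.11 on the log2 scale, and those of C5 and MBL2 in Huh7 to -0.01 and -0.08.

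Added up by role, the level of the classical components was 222 TPM in the Huh7 knockdown against 103 TPM in its control, while the lectin components summed to 153 and 184 TPM. C3 and the alternative components summed to 750.4 TPM in the Huh7 knockdown against 305 TPM in its control, and to 413 and 509 TPM in the PLC/PRF/5 knockdown and control. Terminal components differed least between the lines, at 139 and 133 TPM in the Huh7 knockdown and control and 131 and 116 TPM in the PLC/PRF/5 knockdown and control. This near equality came from different genes, chiefly C5 in Huh7 and C8G with C5 in PLC/PRF/5. Soluble regulators made up 64.6% of the members' summed level in the Huh7 knockdown and 68.0% in the Huh7 control, and 49.6% and 43.0% in the PLC/PRF/5 knockdown and control. Membrane regulators made up 6.28% and 7.05% in the Huh7 knockdown and control and 20.5% and 21.1% in the PLC/PRF/5 knockdown and control.

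**Figure D3:**
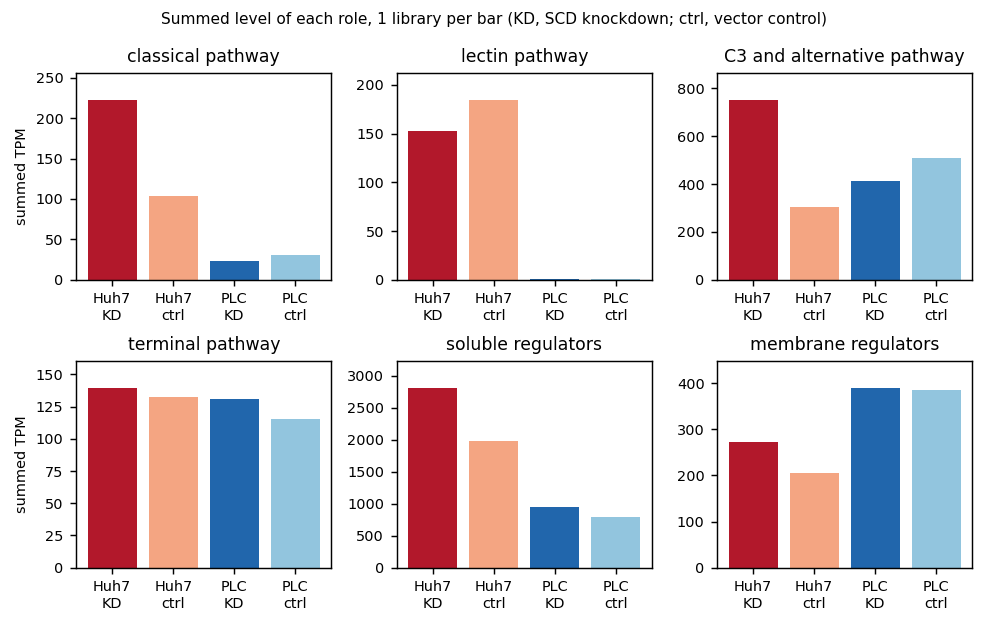
Summed TPM of each role in the 4 libraries, with 1 library per bar and no error; the vertical axes differ and start at 0. The Huh7 knockdown bar is above the Huh7 control bar for the classical (222 against 103 TPM), C3 and alternative (750.4 against 305 TPM) and soluble regulator groups, and below it for the lectin group (153 against 184 TPM).

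Of the 8 members at least 2-fold higher in the Huh7 knockdown, 4 reached 1 TPM in a PLC/PRF/5 library, namely C1R, C1S, C2 and C3, and all 4 were lower in the PLC/PRF/5 knockdown, by less than 1.5-fold on the TPM + 1 scale. For C1R and C2, which reached 1 TPM there in the control alone, no other direction was possible. Across members considered in both lines, 8 of 14 were higher in the Huh7 knockdown and lower in the PLC/PRF/5 knockdown, where 14.1% of all 12064 genes were. Without C1R and C2 it was 6 of 12. Another 4 were higher in both and 2 lower in both. No member was at least 1.5-fold higher in one line and at least 1.5-fold lower in the other, as 0.638% of all genes were. With a pseudocount of 0.1, C1R met that size, with a log2 fold change of 1.70 in Huh7 against -0.63 in PLC/PRF/5, and so did C2, with 1.07 against -0.85. A design with 1 library per group gives no test of whether the lines responded differently.

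**Figure D4:**
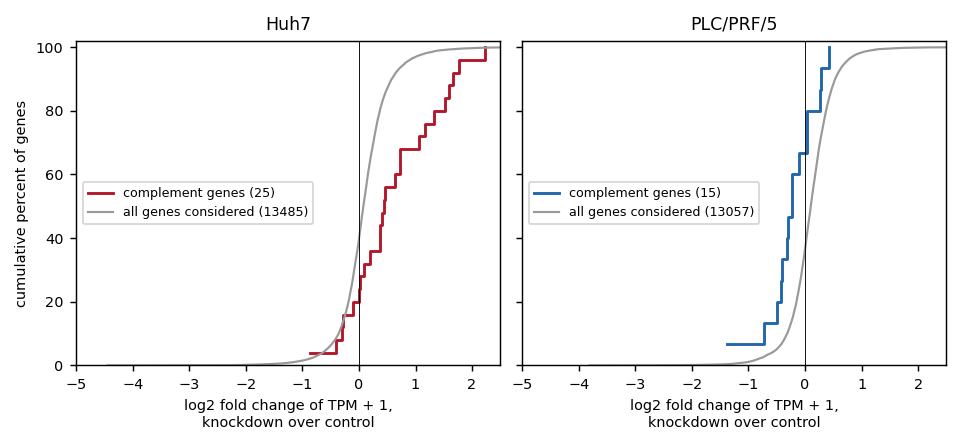
Cumulative percent of genes by log2 fold change of TPM + 1, SCD knockdown over vector control, for the complement genes considered (25 in Huh7, 15 in PLC/PRF/5) and for all genes considered. The complement curve lies to the right of all genes over most of its range in Huh7 (medians 0.45 and 0.08) and to the left in PLC/PRF/5 (medians -0.24 and 0.10).

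Upstream sequence is shown for the members that were at least 2-fold higher and above 10 TPM in the Huh7 knockdown and that have an entry in the promoter table used, which lists RefSeq starts on GRCh38.p14, another build than that of the expression files. It held 22 of the 34 members, and C1S and C3 were not among them. Each line gives the 250 bases before the first start listed, 5′ to 3′ on the gene's strand, with motif matches in capitals.
C1R, chr12:7092446-7092695, minus strand: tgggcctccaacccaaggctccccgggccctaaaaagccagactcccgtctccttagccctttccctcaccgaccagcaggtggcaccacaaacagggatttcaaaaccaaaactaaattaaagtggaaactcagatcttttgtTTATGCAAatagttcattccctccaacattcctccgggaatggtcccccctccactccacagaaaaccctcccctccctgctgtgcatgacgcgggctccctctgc
C2, chr6:31897533-31897782, plus strand: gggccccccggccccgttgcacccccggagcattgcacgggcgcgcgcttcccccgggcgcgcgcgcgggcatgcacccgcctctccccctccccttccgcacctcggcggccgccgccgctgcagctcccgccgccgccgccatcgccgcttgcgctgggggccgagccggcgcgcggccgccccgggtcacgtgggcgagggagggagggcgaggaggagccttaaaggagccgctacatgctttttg
CFI, chr4:109802000-109802249, minus strand: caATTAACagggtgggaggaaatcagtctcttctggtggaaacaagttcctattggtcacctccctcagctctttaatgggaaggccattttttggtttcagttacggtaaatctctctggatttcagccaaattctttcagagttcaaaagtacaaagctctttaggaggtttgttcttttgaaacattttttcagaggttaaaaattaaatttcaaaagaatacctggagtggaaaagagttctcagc
C4BPA, chr1:207103983-207104232, plus strand: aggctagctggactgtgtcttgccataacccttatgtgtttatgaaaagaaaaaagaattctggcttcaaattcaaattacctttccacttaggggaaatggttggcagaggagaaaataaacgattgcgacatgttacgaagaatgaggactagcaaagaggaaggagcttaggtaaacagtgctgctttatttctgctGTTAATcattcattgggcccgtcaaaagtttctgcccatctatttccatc
C4BPB, chr1:207088610-207088859, plus strand: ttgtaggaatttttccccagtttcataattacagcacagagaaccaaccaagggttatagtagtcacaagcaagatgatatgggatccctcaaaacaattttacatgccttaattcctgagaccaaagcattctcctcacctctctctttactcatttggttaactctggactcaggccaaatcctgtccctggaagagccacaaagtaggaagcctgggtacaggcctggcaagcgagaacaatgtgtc
Searched on both strands were TTCNNNGAA, the STAT motif, TTGCNNAA for C/EBP factors, TGANTCA for AP-1 and GTTAAT, the HNF1 half-site. These 5 genes did not share a match. The capitals mark a C/EBP-type match in C1R, 106 to 99 bases before the start, and GTTAAT matches in CFI, 248 to 243 bases, and C4BPA, 50 to 45 bases before it. C2 and C4BPB held none of the 4 motifs in this window. The 22 members listed have 34 windows, of which only the first of each gene was searched, whereas the shares of all genes are over every window. Of these 22 first windows, 7 held TTCNNNGAA, against 6.57% of all 35116 windows. The 7 were MASP2, C7, CFB, MBL2, CD59, C1RL and VTN, none of them at least 2-fold higher in Huh7. C1S and C3, which were that much higher, had no window to search. TTGCNNAA was in 5 of the 22 (C1R, C1RL, C6, MBL2 and VTN) against 9.05% of all windows, GTTAAT in 2 against 6.23% and TGANTCA in 1 against 6.57%. The matches are descriptions of letters and not binding sites.

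Many of the genes lie next to each other in the genome, and neighbours did not always move alike. By the order of protein-coding genes in RefSeq, C4BPB, C4BPA and CD55 on chromosome 1 are adjacent. The first pair had log2 fold changes in Huh7 of 2.22 and 1.76, while that of CD55 was -0.31. On chromosome 12, C1S, C1R and C1RL are adjacent, with log2 fold changes in Huh7 of 1.59, 1.52 and 0.45. C7 and C6 on chromosome 5, with 1 coding gene between them, had values of -0.86 and 1.16. C2 and CFB on chromosome 6, also with 1 between, had values of 1.06 and 0.40.

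The second comparison asked which differences the knockdown libraries of both lines shared, with the lines as the only repeats. It used limma on log2(TPM + 1) with the line as a term, over 13813 genes of which 25 were members, and leaves 1 residual degree of freedom. No member passed in either direction at an adjusted p under 0.05. Of all genes, 0% passed as higher and 0.00724% as lower, a single gene that is neither a member nor SCD. The mean log2 fold change of SCD was -3.15 (limma adjusted p = 0.128), so the fit did not call its own target. A member that did not pass may therefore still differ. At an unadjusted p under 0.05, 3 of the 25 members were higher, near the 12.7% of all genes, and 0 were lower, beside 5.24%. The 3 were soluble regulators, and their number is no more than the share of all genes gives. CLU had a mean log2 fold change of 0.32 with a standard error of 0.08 (limma adjusted p = 0.197) and was higher in both lines. VTN had 0.45 with a standard error of 0.12 (limma adjusted p = 0.199), also higher in both. Both genes were abundant in every library. For C4BPB the mean was 1.33 with a standard error of 0.45 (limma adjusted p = 0.245), from 2.22 in Huh7 and 0.43 in PLC/PRF/5, where it was under 1 TPM in both libraries. CD55, lower in both lines, had a mean of -0.51 with a standard error of 0.21 (limma adjusted p = 0.288). C1S, C3 and CFI had means of 0.75, 0.52 and 0.57 with standard errors of 0.42, 0.38 and 0.53. For C3, at 401 and 494 TPM in the PLC/PRF/5 knockdown and control, the higher level in the Huh7 knockdown was not repeated. C1S was at 1.81 and 2.02 TPM there and CFI under 1 TPM in both libraries, too low to judge a repeat. The members' median was 0.25, beside 0.09 over all genes fitted.

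The third comparison set Huh7 against PLC/PRF/5 in the same fit, with the arms as the only repeats of each line. Its p-values measure how well the knockdown pair repeated the difference of the control pair, not the variation of replicate cultures, and most genes passed. Huh7 was higher at an adjusted p under 0.05 for 17 of 25 members, beside 28.3% of all genes, and PLC/PRF/5 for 4, beside 31.5%. Of the 25, 10 entered the fit through the Huh7 libraries alone, being under 1 TPM in both PLC/PRF/5 libraries, and so had to be higher in Huh7. C8G entered through the PLC/PRF/5 libraries alone and had to be higher there. Among the 14 that reached 1 TPM in both lines, 7 were higher in Huh7, 3 higher in PLC/PRF/5 and 4 did not pass. The shares of all genes given above include genes that entered through 1 line alone. No share was computed over genes reaching 1 TPM in both lines, so these counts stand without a background. Among those 14, SERPING1 had the largest difference toward Huh7, at 6.69 in log2 units with a standard error of 0.38 (limma adjusted p = 4.9e-04). C2 followed at 5.43 with a standard error of 0.39, and it was 4.65 higher in Huh7 among the controls and 6.21 among the knockdowns. C1S differed by 3.21. Toward PLC/PRF/5, the differences were -1.85 for CFD, -1.33 for CD55 and -0.80 for CD46. Of the genes whose direction was fixed, MASP1, CFI, C4BPA, CFB and C4BPB differed by 7.07, 5.71, 4.25, 4.12 and 3.72, and C8G by -5.51, given here as sizes without a test. The genes that did not pass were C3, VTN, C1RL and CD59. For C3 the difference was 0.85 in the knockdown libraries and -0.78 in the controls, so the mean of 0.03 with a standard error of 0.38 stands for values of opposite sign and not for equal levels.

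**Figure D5:**
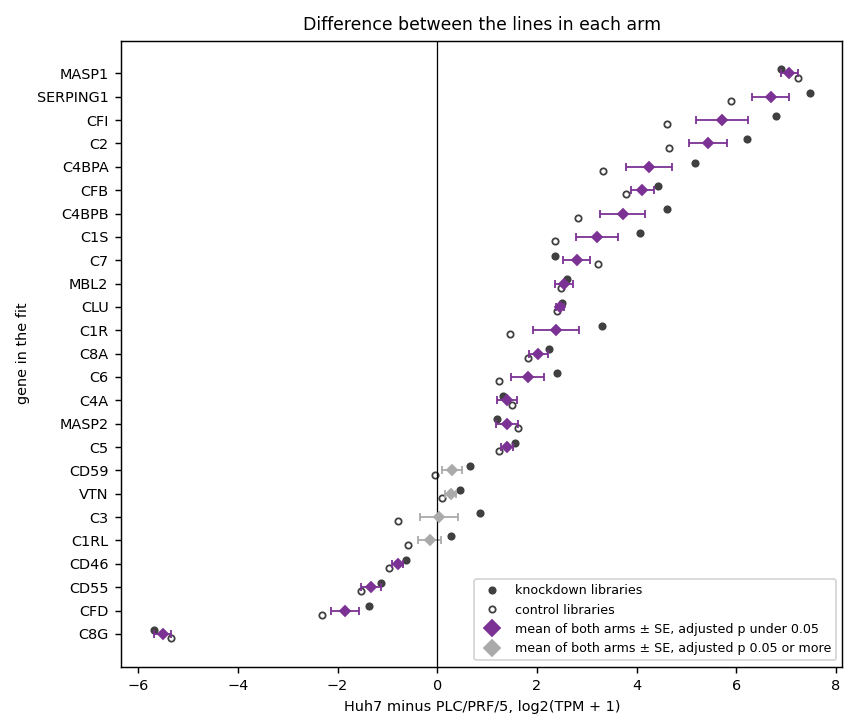
Huh7 minus PLC/PRF/5 in log2(TPM + 1) for the 25 complement genes in the fit; filled circles are the knockdown libraries, open circles the control libraries, and diamonds the limma mean with its standard error. MASP1 (7.07) and SERPING1 (6.69) are at the Huh7 end and C8G (-5.51) at the PLC/PRF/5 end, and the circles of C3 fall on either side of 0.

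Other genes of the pathway came from a list of recognition molecules and receptors. Of 21 found in the files, 13 were under 1 TPM in every library, beside 10865 of all 25343 genes. C1QBP and CALR of this list were abundant, at 506 TPM or more and 1230.58 TPM or more in every library. The 8 listed at 0 in all 4 libraries, beside 5537 of all genes, included the C1q chain genes C1QA, C1QB and C1QC and the C3a receptor gene C3AR1. Huh7 thus carried messages for the C1 proteases without a measured level of those for C1q. The pentraxin PTX3 was at 10.7 TPM in the Huh7 knockdown against 5.51 TPM in its control and at 0.04 TPM or less in PLC/PRF/5, and the collectin COLEC11 was at 3.05 and 1.43 TPM in the Huh7 knockdown and control. The C5a receptor genes C5AR1 and C5AR2 were at 2.47 and 1.94 TPM in the PLC/PRF/5 knockdown and 3.78 and 3.11 TPM in its control. Of the list's members considered, 6 in Huh7 and 5 in PLC/PRF/5, none was 2-fold different in either line on the TPM + 1 scale, and none passed in limma over both lines at an adjusted or an unadjusted p under 0.05.

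Plasma proteins of the acute-phase response gave a related but not identical picture. In PLC/PRF/5 all 10 considered were lower in the knockdown library, beside 36.5% of all genes, and 4 of them at least 2-fold, beside 1.12%. SERPINA3 was 1 of the 4 and reached 1 TPM there in the control alone. The others were ORM1, ORM2 and FGB, at 49.1, 8.86 and 148.5 TPM in the PLC/PRF/5 knockdown and 239.7, 41.2 and 459 TPM in its control. In Huh7 9 of 16 were higher, near the 60.2% of all genes, and 3 of the 9, SAA1, SAA2 and ITIH4, reached 1 TPM in the knockdown alone. By size, 2 of the 16, SAA1 and SAA4, were at least 2-fold higher, beside 3.1% of all genes. SERPINA3 alone was at least 2-fold lower there, beside 1.54%. SAA4, a constitutive serum amyloid A gene, was at 176 TPM in the Huh7 knockdown against 30.3 TPM in its control, and at 66.4 and 90.9 TPM in the PLC/PRF/5 knockdown and control. SERPINA3, the antichymotrypsin gene, was lower in the knockdown of both lines, at 11.1 and 28.6 TPM in the Huh7 knockdown and control and 0.64 and 2.42 TPM in the PLC/PRF/5 knockdown and control. Among 17 genes of cytokine signalling and liver transcription factors upstream of complement genes, 1 was at least 2-fold higher in the Huh7 knockdown, beside 3.1% of all genes. This was CEBPD, the gene of an acute-phase transcription factor, at 114 TPM in the Huh7 knockdown against 33.1 TPM in its control, and at 47.3 and 47.8 TPM in the PLC/PRF/5 knockdown and control. NR1H4, the bile acid receptor gene, was at 0.44 TPM in the PLC/PRF/5 knockdown and 5.68 TPM in its control, the only library of that pair above 1 TPM, and CEBPA was at 48.4 and 98.3 TPM there. IL1R1, an interleukin-1 receptor gene, was at 17.5 and 8.77 TPM in the Huh7 knockdown and control and at 26.5 and 33.7 TPM in the PLC/PRF/5 knockdown and control. IL6R, the interleukin-6 receptor gene, was at 10.4 and 13.2 TPM in the Huh7 knockdown and control and at 33.7 and 51.3 TPM in the PLC/PRF/5 knockdown and control. The part of any of these genes in the complement values was not tested.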

How the data were processed

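The authors deposited TPM per gene symbol for each library, rounded to 2 decimals. Per the submitters' processing notes, cutadapt, RSEM 1.2.21 and the hg19 build were used; aligner, annotation and strandedness: not given in the sources used here. Because RSEM divides reads shared by similar genes, C4A and C4B are uncertain. TPM holds no depth, so no counting interval or floor was computed.

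From the deposited TPM, log2(TPM + 1) was fitted with limma 3.58.1 in R 4.3.3, with line and arm as terms and a variance trend, for 13813 genes with at least 1 TPM in at least 2 libraries. P-values are two-sided, adjusted by Benjamini-Hochberg over all genes fitted. The moderated variance adds 3.71 prior degrees of freedom to 1 residual one. Nothing states that libraries came from separate experiments. Groups came from sample titles. The fit was tested on simulated data. Alternatives were pseudocounts of 0.1 and 5, TPM minimums of 5 or none, median-ratio rescaling, no variance trend, and fits without the line or the arm term. Shared words were counted in GENCODE 29 transcripts. Members, lists and motifs were chosen with earlier results of these data known. Values are given for members with 10 TPM in a library or a 2-fold difference, and for the rest by level. From the other lists, genes 2-fold different in both lines and otherwise those with the largest mean absolute fold changes were to be named; any other gene named from them was picked with its values known.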

Additional observations from a re-analysis of the deposited data

How the results depend on the processing

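The labels carry no replicate numbers, so no pairing of replicates within a line was possible. The line term of the fit set each knockdown library against the control of its own line. With 1 library per group no replicate could be left out. The count of 8 members at least 2-fold higher in the Huh7 knockdown stayed within 1.5 times under every alternative run; C6 fell short of 2-fold with a pseudocount of 5 (0.55) and C2 with median-ratio rescaling (0.97). Rescaling shifted the median of all genes by -0.09 in Huh7 and -0.14 in PLC/PRF/5, and the members' median in PLC/PRF/5 became -0.37. With a pseudocount of 5, 0 members were at least 2-fold lower in PLC/PRF/5 (SERPING1, -0.71). With a pseudocount of 0.1, 2 members met the opposite-response size. Without a filter on low values the members' median became 0.30 in Huh7 and 0 in PLC/PRF/5, where more members at or near 0 enter, 1 member was lower over both lines at an unadjusted p under 0.05, and 0 members passed in either direction between the lines; the cause of the last was not tested. Over both lines at an unadjusted p under 0.05, 2 members were higher and 1 lower with rescaling. Without the variance trend 1 was higher and 1 lower, and without the line term 0 were higher. No member passed the adjusted threshold for the knockdown in any of these fits. Depth is unknown, so small differences of genes near 1 TPM cannot be weighed.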
